A study of Homo sapiens with 11 samples.

Results

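The microRNA machinery genes are the 10 genes whose proteins make microRNAs or carry out their silencing of mRNAs. They were picked by name for their role in the pathway, with earlier results of these data known, and all 10 are present among the 31325 gene rows of the arrays. The members are the Argonaute genes EIF2C1 to EIF2C4 (now AGO1 to AGO4), the GW182 protein genes TNRC6A, TNRC6B and TNRC6C, and the processing and export genes DGCR8, XPO5 and DICER1. Their mRNA was measured in 2 established human cancer cell lines, the breast line MDA-MB-231 and the ovarian line SKOV3. Cells of each line were transfected with a mimic of miR-365a-3p, a synthetic RNA that acts as the mature microRNA, or with a control miRNA. Each group had 3 arrays, except the SKOV3 control group with 2, and there were 11 arrays in all. The labels place the samples at 48 h, whereas the description of the series gives 24 h. The methods give the derivative SKOV3.ip1 as the ovarian line. No source states whether arrays of a group came from separate cultures, so the p-values measure the spread between these arrays, which may be technical.

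A microRNA is cut from its primary transcript in the nucleus by Drosha with its partner DGCR8. Exportin-5, the product of XPO5, carries the hairpin precursor to the cytoplasm, where Dicer, the product of DICER1, cuts it to a duplex. A strand of the duplex is held by an Argonaute protein, which pairs it with mRNAs chiefly through the seed near its 5′ end. The GW182 proteins bind Argonaute and bring in the deadenylases and decapping enzymes that silence and degrade the mRNA. A transfected mimic enters at the Argonaute step and needs neither Drosha, exportin-5 nor Dicer cutting. EIF2C is the older name of the Argonaute genes, and the array annotation keeps it.

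The mature sequence of the transfected microRNA is shown because it defines the treatment. It is listed for miR-365 in the study's library, and RefSeq (assembly GRCh38.p14) gives the same 22 bases for the mature products of both human loci, with the seed (bases 2 to 8) in capitals.
hsa-miR-365, study library: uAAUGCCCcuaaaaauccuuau
hsa-miR-365a-3p, chr16:14309340-14309361, plus strand: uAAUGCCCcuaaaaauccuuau
hsa-miR-365b-3p, chr17:31575478-31575499, plus strand: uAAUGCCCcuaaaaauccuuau
Among the mature microRNAs in the RefSeq table, these 2 names are the only ones with this seed. The values used here hold no row for the mature product. The row MIR365-1, a precursor gene, had log2 differences of 0.39 (adjusted p = 0.0679) in MDA-MB-231 and 0.31 (adjusted p = 0.251) in SKOV3 in limma. MIR365-2, the other precursor gene, had -0.01 (limma adjusted p = 0.873) and -0.003 (limma adjusted p = 0.985), with group means of 7.31 to 7.33. Neither row passed the test. On the deposited values, without further normalization, MIR365-1 had 0.10 (limma adjusted p = 0.578) and 0.07 (limma adjusted p = 0.777). HDAC4, a histone deacetylase that the study names as a target, had log2 differences of -1.08 in MDA-MB-231 (limma adjusted p = 9.16e-05) and -0.75 in SKOV3 (limma adjusted p = 0.00208). The other 3 targets that the study names were not called in SKOV3. CCND1, a cyclin, had differences of -2.09 (limma adjusted p = 0.00258) in MDA-MB-231 and -0.78 (limma adjusted p = 0.289) in SKOV3. BCL2, an inhibitor of apoptosis, had -0.11 (limma adjusted p = 0.00284) and -0.03 (limma adjusted p = 0.484). NKX2-1, a transcription factor, had -0.01 (limma adjusted p = 0.872) and 0.02 (limma adjusted p = 0.789). Group means of BCL2 (7.35 to 7.47) and NKX2-1 (7.28 to 7.30) lay below the floor of 7.50 described in the next paragraph. A fall of either gene was thus hardly measurable. On the deposited values, without further normalization, BCL2 was called in SKOV3, at -0.072 (limma adjusted p = 0.0497).

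All levels are log2 signals after quantile normalization across the 11 arrays, and all differences are on this log2 scale, from a limma fit of the 4 group means. A gene was called when its p-value, adjusted by the Benjamini-Hochberg method over 31325 rows, was under 0.05. Because most rows of these arrays lie near the lowest signal, a floor was set at 7.50, the highest group mean among 10 genes that are silent in epithelial cells, whose group means began at 7.23. Of all rows, 36.7% had a mean of the 4 groups above it. A gene near the floor cannot fall much further, and a fold change understates the change of such a gene. Some widely expressed genes, such as DDX6, also lay at the floor, so a level there does not show that a gene is silent. The transfected and control arrays also differed as wholes. On the deposited values the 75th percentile of an array was 7.56 to 7.65 with miR-365a-3p and 7.86 to 7.93 with control miRNA in MDA-MB-231, and 7.67 to 7.80 against 7.98 to 8.04 in SKOV3. The balance of small-protein over large-protein gene families, the first minus the second as medians of gene-centred signals, was 0.74 to 1.03 with miR-365a-3p and -1.33 to -1.07 with control miRNA in MDA-MB-231, and 0.35 to 1.13 against -0.68 to -0.54 in SKOV3. The array weights of limma, which are low for an array far from its group, were 0.39 for SKOV3 miR-365a-3p replicate 1 and 0.48 for MDA-MB-231 miR-365a-3p replicate 1, and reached 2.36 for SKOV3 miR-365a-3p replicate 3. The first 2 of these arrays also had the lowest 75th percentile and the highest balance of their groups. The part of these shifts in the values of the members was not tested. Among the control arrays, 4 of 6 SKOV3 markers were called higher in that line (ERBB2 by 3.26, EPCAM by 2.73, PAX8 by 0.78 and CLDN3 by 0.34), while KRT7 was not called and WT1 lay at the floor. Of 6 markers of MDA-MB-231, ZEB1 was higher in that line, VIM, AXL, CAV1 and MSN were well above the floor in both lines without a call, and FN1 lay at the floor.

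With miR-365a-3p, 7 of the 10 members fell in MDA-MB-231 and 3 fell in SKOV3, and none rose in either line. The 7 were EIF2C1, EIF2C2, TNRC6A, TNRC6B, DGCR8, XPO5 and DICER1, and the 3 were EIF2C1, EIF2C2 and TNRC6B, which thus fell in both lines. Of all 31325 rows, 11.7% fell and 14.4% rose in MDA-MB-231, 7.11% fell and 7.25% rose in SKOV3, and 5.39% fell in both. Among the 11482 rows above the floor, which include 6 of the members, these shares of rows that fell were 26.0% in MDA-MB-231, 16.2% in SKOV3 and 13.3% in both. The median difference of the members was -0.28 in MDA-MB-231 and -0.20 in SKOV3, where the median of all rows was 0.006 and 0.007. Every miR-365a-3p array lay below every control array for 7 members in MDA-MB-231, beside 17.0% of all rows, and for 8 members in SKOV3, beside 18.2%. A total RNA sample averages over the culture, and a large fall in some of the cells cannot be told apart from a smaller fall in every cell.

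The call for the members depended on the normalization in SKOV3. On the deposited values without further normalization, 7 members fell in MDA-MB-231, 8 in SKOV3 and 7 in both, where 17.9%, 14.0% and 10.1% of all rows fell. With these values 5620 rows fell and 2275 rose in MDA-MB-231, against 3663 and 4511 after quantile normalization. In SKOV3 the split was 4401 and 1201 with the deposited values, against 2228 and 2270.

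**Figure D1:**
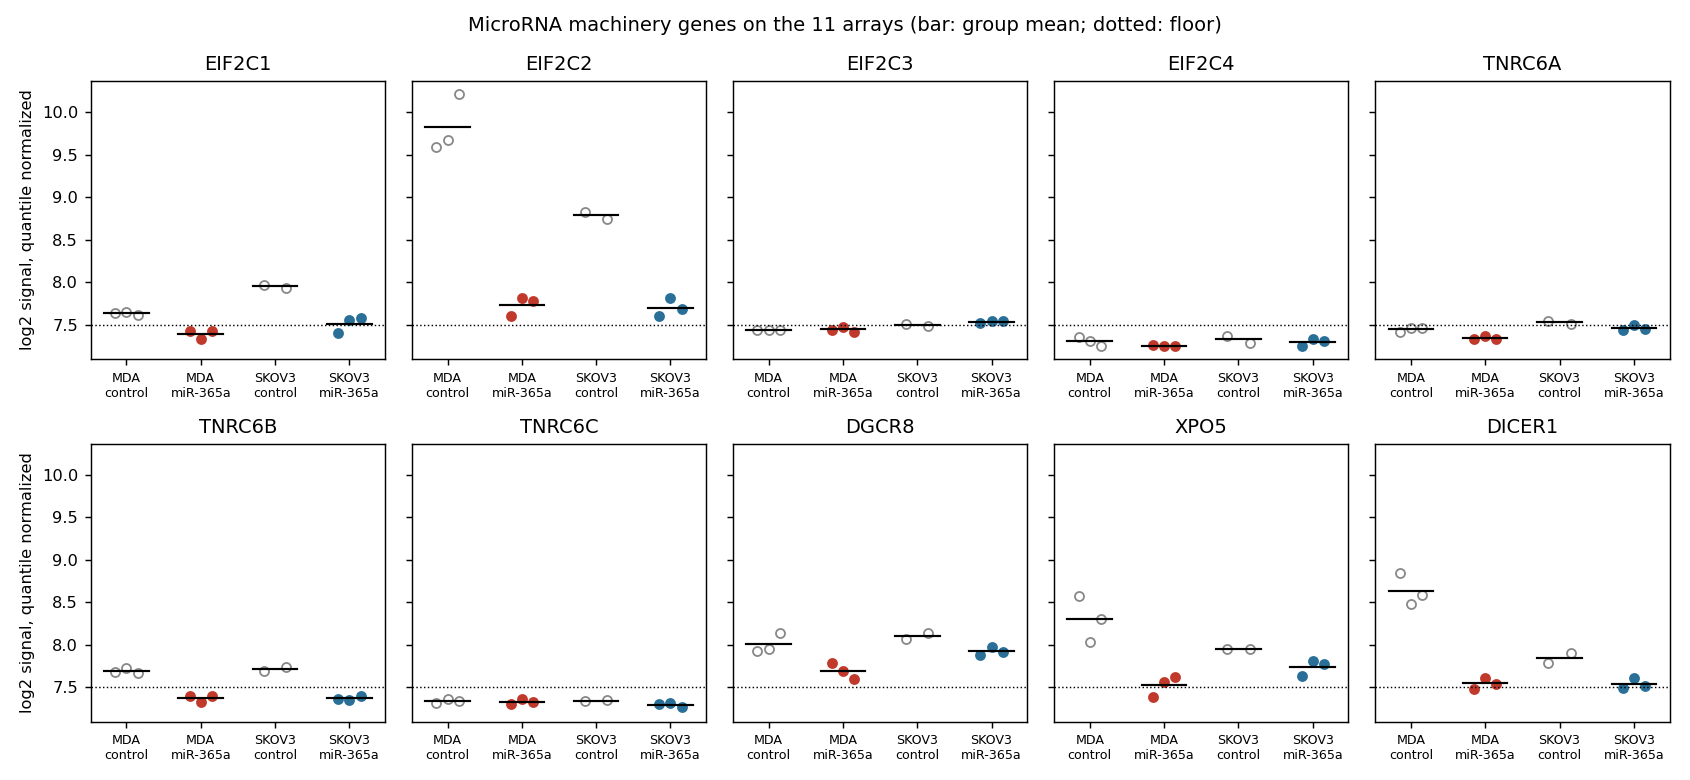
Level of each member on each of the 11 arrays, as log2 signal after quantile normalization (y axis), by group (x axis). Open circles are control arrays, filled circles are miR-365a-3p arrays, short bars are group means and the dotted line is the floor at 7.50. EIF2C2 and DICER1 are highest in control MDA-MB-231, and all their miR-365a-3p arrays lie between 7.49 and 7.82.

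EIF2C2 encodes Argonaute 2, the human Argonaute that cuts target RNA. Its control arrays read 9.59, 9.68 and 10.22 in MDA-MB-231, and its miR-365a-3p arrays read 7.61, 7.81 and 7.78. In SKOV3 the control arrays read 8.82 and 8.75, and the miR-365a-3p arrays read 7.60, 7.82 and 7.68. The groups were far apart in both lines, and no other member differed as much in either. EIF2C2 fell by 2.10 in MDA-MB-231, a 4.27-fold difference (standard error, SE, 0.15, limma adjusted p = 3.31e-05), and only 0.345% of rows had a lower value. In SKOV3 it fell by 1.09, or 2.12-fold (SE 0.17, limma adjusted p = 0.00311), with 1.77% of rows lower.

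EIF2C1 encodes Argonaute 1, which silences without cutting. Its 3 control arrays in MDA-MB-231 read 7.63, 7.65 and 7.62, and its miR-365a-3p arrays read 7.42, 7.33 and 7.43. In SKOV3 the control arrays read 7.97 and 7.93 against 7.40, 7.56 and 7.58 with miR-365a-3p. The groups did not overlap in either line, and the miR-365a-3p arrays of both lines lay near the floor. EIF2C1 fell by 0.24 in MDA-MB-231 (SE 0.047, limma adjusted p = 0.0054), and in SKOV3 the gene fell by 0.44 (SE 0.053, limma adjusted p = 0.000964). On the deposited values the difference in SKOV3 was -0.69 (adjusted p = 7.88e-05).

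EIF2C3 and EIF2C4, for Argonautes 3 and 4, were not called in either line. The genes lie beside EIF2C1 on chromosome 1. EIF2C3 had group means of 7.44 and 7.44 in MDA-MB-231 and of 7.50 and 7.54 in SKOV3, control before miR-365a-3p. Its difference was 0.01 (limma adjusted p = 0.892) in MDA-MB-231 and 0.04 (limma adjusted p = 0.318) in SKOV3. The sign in SKOV3 turned on the deposited values, where the difference was -0.093 (limma adjusted p = 0.0443). EIF2C4 had group means between 7.25 and 7.33, in the range of the silent genes, and differences of -0.05 and -0.03. At such levels little room is left for a fall.

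TNRC6B, one of the 3 human GW182 proteins, fell by about as much in both lines. Its control arrays read 7.68, 7.72 and 7.67 in MDA-MB-231 and 7.69 and 7.73 in SKOV3. With miR-365a-3p they read 7.40, 7.32 and 7.40 in MDA-MB-231 and 7.36, 7.35 and 7.39 in SKOV3. All arrays with miR-365a-3p were below the floor and all control arrays above it. The difference was -0.32 in MDA-MB-231 (SE 0.028, limma adjusted p = 9.15e-05) and -0.34 in SKOV3 (SE 0.031, limma adjusted p = 0.000215). On the deposited values the difference in SKOV3 was -0.54 (adjusted p = 2.41e-05). The difference between these responses was -0.03 (SE 0.042, limma adjusted p = 0.87). With nearly equal control levels and both miR-365a-3p groups below the floor, this comparison could not show whether the falls were unequal.

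TNRC6A and TNRC6C, the other GW182 genes, lay at or near the floor. TNRC6A read 7.42, 7.46 and 7.46 in control MDA-MB-231 and 7.33, 7.37 and 7.33 with miR-365a-3p, without overlap. It fell by 0.10 there (SE 0.025, limma adjusted p = 0.0145), but the call was lost with cyclic loess normalization (adjusted p = 0.0961) and without any of 3 single arrays, namely miR-365a-3p replicate 1 (adjusted p = 0.0508) and control replicates 2 (0.0515) and 3 (0.0544). In SKOV3 it had means of 7.53 and 7.46, a difference of -0.07 (limma adjusted p = 0.18). TNRC6C had group means of 7.29 to 7.34 and was called in neither line.

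**Figure D2:**
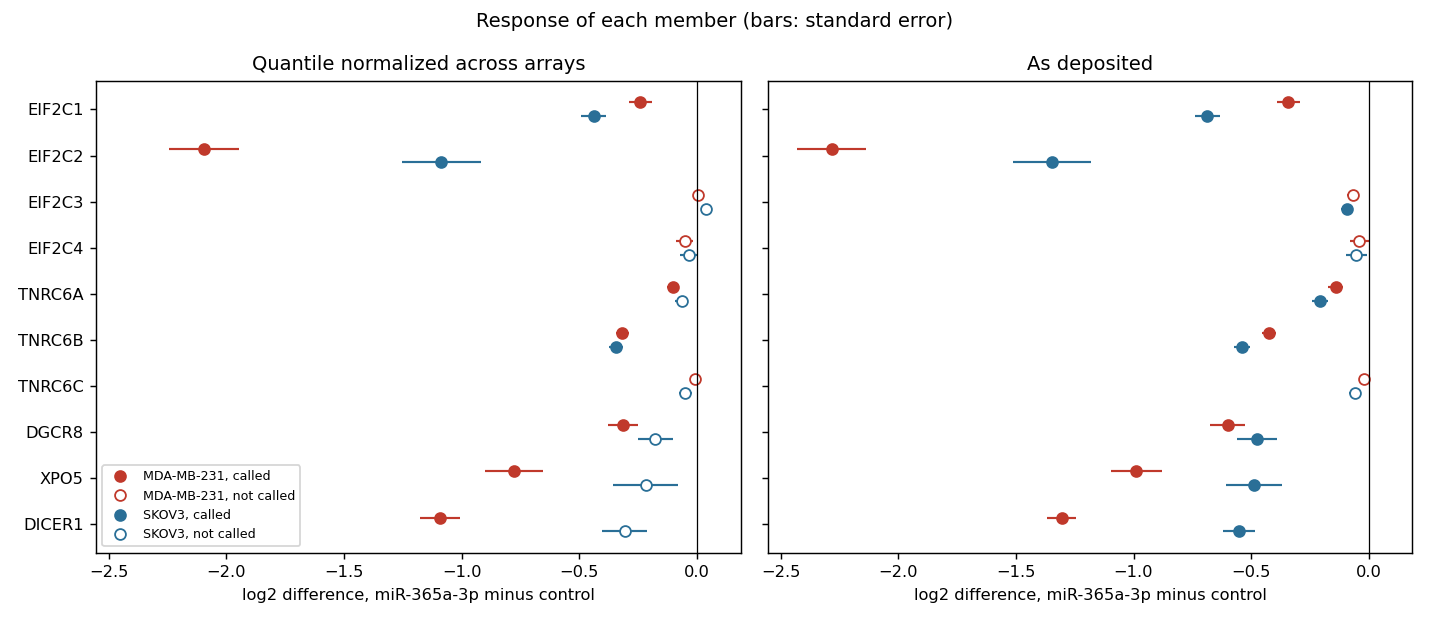
Difference of each member between miR-365a-3p and control (x axis, log2) in MDA-MB-231 (red) and SKOV3 (blue), after quantile normalization (left) and on the deposited values (right). Bars are standard errors of the limma fit and filled points are called. After quantile normalization 7 members are called in MDA-MB-231 and 3 in SKOV3, against 7 and 8 on the deposited values, with EIF2C2 the farthest to the left in both panels.

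DICER1, whose enzyme makes the final cut of the precursor, had control arrays at 8.85, 8.48 and 8.59 in MDA-MB-231 and miR-365a-3p arrays at 7.49, 7.61 and 7.55. In SKOV3 the control arrays read 7.78 and 7.91 and the miR-365a-3p arrays 7.49, 7.61 and 7.51. The groups did not overlap in either line, with a far wider gap in MDA-MB-231. DICER1 fell by 1.09 in MDA-MB-231, or 2.13-fold (SE 0.087, limma adjusted p = 5.77e-05). In SKOV3 the difference was -0.31 (SE 0.097, limma adjusted p = 0.0731) and was not called. It was called there on the deposited values, at -0.55 (adjusted p = 0.000816), and without MDA-MB-231 control replicate 1 (adjusted p = 0.0121). It was also called with median centring (adjusted p = 0.00155), array weights (0.0118), each line fitted alone (0.0487) or rows above the median (0.0428). With cyclic loess, a replicate block or an intensity trend it was not called.

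XPO5, the export receptor of precursors, read 8.57, 8.04 and 8.30 on the control arrays and 7.39, 7.57 and 7.62 on the miR-365a-3p arrays of MDA-MB-231. The spread of the controls was wide, but the groups stayed apart. XPO5 fell by 0.78 there, or 1.71-fold (SE 0.12, limma adjusted p = 0.00179). In SKOV3 it read 7.95 and 7.95 against 7.63, 7.81 and 7.77, and the difference of -0.22 (SE 0.14, limma adjusted p = 0.428) did not pass the test.

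DGCR8, the RNA-binding partner of Drosha, read 7.93, 7.95 and 8.14 with control miRNA and 7.79, 7.69 and 7.60 with miR-365a-3p in MDA-MB-231. It fell by 0.31 (SE 0.066, limma adjusted p = 0.00719), and on the deposited values the difference was -0.60 (adjusted p = 0.000559). In SKOV3 the arrays read 8.07 and 8.13 against 7.88, 7.97 and 7.92, again without overlap, with a difference of -0.18 (SE 0.073, limma adjusted p = 0.174). On the deposited values DGCR8 and XPO5 were called in SKOV3, with differences of -0.47 (adjusted p = 0.00497) and -0.49 (adjusted p = 0.0232).

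For single genes, an exact permutation test moved the treatment among the arrays of each line over all 200 arrangements and used the mean of the differences of both lines. The two-sided p was 0.005, the smallest that the arrangements can give, for EIF2C1, EIF2C2, TNRC6B, DGCR8, XPO5 and DICER1. It was 0.01 for TNRC6A, 0.075 for EIF2C3, 0.135 for EIF2C4 and 0.125 for TNRC6C. These p-values were not adjusted for the number of members, and the share of all rows that reach 0.005 was not computed. Because the lines are averaged, a small p does not show a fall in each line. DGCR8, XPO5 and DICER1 were not called in SKOV3 in limma after quantile normalization.

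The next comparison asked whether the lines differed without the mimic. With control miRNA, EIF2C2 was lower in SKOV3 than in MDA-MB-231, with a difference of -1.04 (SE 0.17, limma adjusted p = 0.0026) between means of 8.78 and 9.83. DICER1 was lower too, with a difference of -0.80 (SE 0.097, limma adjusted p = 0.000571) between means of 7.84 and 8.64. EIF2C1 was higher in SKOV3 by 0.32 (SE 0.053, limma adjusted p = 0.00332), with means of 7.95 and 7.63. The other 7 members were not called. Of all rows, 7.76% were lower and 8.34% were higher in SKOV3, beside 2 and 1 of the 10 members. XPO5, at 7.95 against 8.30, had an adjusted p of 0.146 in limma.

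With miR-365a-3p, the 2 members that were lower in control SKOV3 had nearly equal levels in both lines. EIF2C2 had means of 7.70 in SKOV3 and 7.73 in MDA-MB-231 (difference -0.03, SE 0.15, limma adjusted p = 0.929). DICER1 had means of 7.54 and 7.55 (difference -0.01, SE 0.087, limma adjusted p = 0.964). These means, from 7.54 to 7.73, lay close to the floor, and unequal levels below the floor could not be told apart. EIF2C3, TNRC6A and DGCR8 were called higher in SKOV3 with miR-365a-3p, by 0.09, 0.12 and 0.23, beside 17.0% of all rows that were called in either direction. Of these, EIF2C3 (7.54 against 7.44) and TNRC6A (7.46 against 7.34) lay near or below the floor, where such differences say little about levels. TNRC6A was not called on the deposited values (0.10, limma adjusted p = 0.0604).

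The response itself was compared between lines as the difference in SKOV3 minus that in MDA-MB-231. DICER1 was the member called, at 0.78 (SE 0.13, limma adjusted p = 0.0179), and 2.54% of all rows were called. Its level with miR-365a-3p lay 0.05 above the floor in MDA-MB-231 and 0.04 above it in SKOV3, and its control level lay 1.14 and 0.35 above it. A fall as large as that in MDA-MB-231 was thus not measurable in SKOV3, and this value is nearly the difference of -0.80 between the control groups with its sign turned. The call was lost without SKOV3 control replicate 1 (adjusted p = 0.106) or replicate 2 (adjusted p = 0.0624). EIF2C2, whose control groups differed by -1.04, had a difference of 1.01 (SE 0.22, limma adjusted p = 0.0592) and was not called. It was called without MDA-MB-231 control replicate 1 (adjusted p = 0.0392) or replicate 3 (adjusted p = 0.014). Cyclic loess (adjusted p = 0.0365), an intensity trend (0.0177), rows above the median (0.0349) and array weights (0.0179) gave the call too. The deposited values (adjusted p = 0.0711), median centring and a replicate block did not. XPO5 had a difference of 0.56 (SE 0.18, limma adjusted p = 0.211). EIF2C1 ran the other way, at -0.20 (SE 0.071, limma adjusted p = 0.258), and was called on the deposited values at -0.34 (adjusted p = 0.0484). The control level of EIF2C1 lay 0.14 above the floor in MDA-MB-231 and 0.45 above it in SKOV3. With miR-365a-3p the levels lay at -0.10 and 0.01 from the floor. A fall of EIF2C1 as large as that in SKOV3 was thus hardly measurable in MDA-MB-231. These contrasts share control arrays with the comparisons above.

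The order of the 4 groups differed between the members. For EIF2C2 and DICER1 the control group of MDA-MB-231 was highest, that of SKOV3 next, and the groups with miR-365a-3p lowest, without a difference between lines beyond their spread. For EIF2C1 the control group of SKOV3 was highest, then that of MDA-MB-231, and the lines did not differ beyond their spread with miR-365a-3p (limma adjusted p = 0.147). TNRC6B had 2 levels, that of the control groups (difference between lines 0.02, adjusted p = 0.772) and that of the miR-365a-3p groups (difference 0.00, adjusted p = 0.964), and the lines did not differ beyond their spread at either. The level of the miR-365a-3p groups lay below the floor, where unequal levels could not be told apart. For DGCR8 the groups with control miRNA did not differ beyond their spread (adjusted p = 0.548), and the miR-365a-3p group of SKOV3 lay above that of MDA-MB-231 (adjusted p = 0.0409).

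The rows most like each member that fell in both lines were sought among 11481 rows above the floor, by the root mean square of the difference over 11 arrays after centring each row on its own mean. EIF2C2, with a standard deviation of 0.97 over the arrays, was followed most closely by MYO10 (0.13) and ASAP1 (0.16). EIF2C1, with a standard deviation of 0.21, was nearest to LOC654191 (0.031) and ATRN (0.042). TNRC6B, with a standard deviation of 0.17, was nearest to CRAMP1L (0.039) and SEC24B (0.041). The arrays share treatment and line, so rows that fell in both lines tend to be close in this measure.

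Promoters are shown for 3 members that fell, EIF2C1 and TNRC6B in both lines and DICER1 in MDA-MB-231, to set their letters side by side. Each is the 250 bases before a RefSeq start (GRCh38.p14), read 5′ to 3′ on the gene's strand. Capitals mark the letters of motifs searched on both strands. For DICER1 the first of 5 starts in the table is shown.
EIF2C1, chr1:35882959-35883208, plus strand: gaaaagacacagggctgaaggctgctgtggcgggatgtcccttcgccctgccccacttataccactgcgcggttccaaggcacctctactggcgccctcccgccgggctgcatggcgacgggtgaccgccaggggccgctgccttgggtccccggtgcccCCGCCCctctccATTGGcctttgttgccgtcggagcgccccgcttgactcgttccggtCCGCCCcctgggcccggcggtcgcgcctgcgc
TNRC6B, chr22:40044584-40044833, plus strand: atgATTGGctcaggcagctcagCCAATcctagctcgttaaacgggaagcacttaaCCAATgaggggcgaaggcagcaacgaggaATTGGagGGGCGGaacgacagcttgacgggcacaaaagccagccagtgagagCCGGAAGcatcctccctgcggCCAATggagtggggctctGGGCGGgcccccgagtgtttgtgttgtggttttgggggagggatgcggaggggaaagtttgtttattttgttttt
DICER1, chr14:95157530-95157779, minus strand: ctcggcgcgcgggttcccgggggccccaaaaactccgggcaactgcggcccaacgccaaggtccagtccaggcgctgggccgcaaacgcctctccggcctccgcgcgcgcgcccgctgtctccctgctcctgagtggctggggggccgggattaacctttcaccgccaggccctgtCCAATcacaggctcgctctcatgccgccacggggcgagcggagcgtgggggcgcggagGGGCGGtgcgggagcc
The letters searched were the SP1 box GGGCGG, the CCAAT box, the ETS factor motif CCGGAAG, the TATA box TATAAA, the YY1 motif AAGATGGC and the NRF1 motif. TNRC6B holds 5 CCAAT boxes, 3 on the plus and 2 on the minus strand of the printed letters, beside 2 SP1 boxes and 1 ETS motif. EIF2C1 holds 2 SP1 boxes and 1 CCAAT box, all on the minus strand, and DICER1 holds 1 of each on the plus strand. A promoter was in the table for 9 members, all except EIF2C2, the member with the largest fall. Of these 9, 7 hold the SP1 box, 5 the CCAAT box and 3 the ETS motif. None of the 9 holds the TATA box, the YY1 motif or the NRF1 motif. Among all 35116 promoters of this length the shares are 42.6% for the SP1 box, 32% for the CCAAT box, 8.52% for the ETS motif, 10.7% for the TATA box, 1.36% for the YY1 motif and 1.03% for the NRF1 motif. The share of G and C was 46% for TNRC6C, 56.4% for TNRC6B and 66.4% to 80% for the other members with a promoter. The median among all promoters was 58%. The part of the share of G and C in the counts of the SP1 box, which is made of these bases, was not tested. The shares over all promoters count every start, whereas each member is counted by its first start. EIF2C3, which did not fall, holds the SP1 box and the ETS motif as well. A match of letters is a description and not a binding site.

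Around the members, 76 of 77 further genes of the pathway were matched to a row. In MDA-MB-231 27 of them fell and 8 rose, in SKOV3 23 fell and 5 rose, and 20 fell and 4 rose in both lines. The shares over all rows, given above for each line, were 5.39% that fell and 5.76% that rose in both. Among rows above the floor, 26.0% fell and 34.4% rose in MDA-MB-231, 16.2% fell and 18.6% rose in SKOV3, and 13.3% fell and 15.6% rose in both. The rises of the further genes, at 8 and 5 of 76, were thus not more frequent than among rows above the floor. On the deposited values 41 fell and 4 rose in MDA-MB-231 and 28 fell and 2 rose in SKOV3. Of the 27 that fell in MDA-MB-231, 11 act in the removal of the poly(A) tail and 7 in decapping and decay, both of which follow the binding of Argonaute.

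Of 18 deadenylation genes, 11 fell and 1 rose in MDA-MB-231, 10 fell and none rose in SKOV3, and 8 fell in both. Of all rows 11.7%, 7.11% and 5.39% fell in MDA-MB-231, SKOV3 and both, and of rows above the floor 26.0%, 16.2% and 13.3%. PABPC1, the main cytoplasmic poly(A)-binding protein, which GW182 proteins contact, fell by 3.42 in MDA-MB-231, from 12.71 ± 0.09 (SD, n = 3) to 9.29 ± 0.39 (SD, n = 3), with an adjusted p of 4.52e-05 in limma. In SKOV3 it fell by 2.57, from 12.08 ± 0.05 (SD, n = 2) to 9.51 ± 0.53 (SD, n = 3), with an adjusted p of 0.000718 in limma. PABPC4, a related poly(A)-binding protein, had differences of -2.41 and -1.88. CNOT1, the scaffold of the CCR4-NOT deadenylase, had differences of -1.12 and -0.76, and CNOT6, 1 of its catalytic subunits, of -1.19 and -0.75. No other catalytic subunit of the complex was called in both lines. CNOT10, another subunit of the complex, was the deadenylation gene that rose in MDA-MB-231, by 0.45, but its difference on the deposited values was 0.07 (limma adjusted p = 0.689).

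Of 15 genes for decapping and decay, 7 fell and 1 rose in each line, the same 7 and the same 1 in both, beside the shares of rows above the floor that fell, 26.0% in MDA-MB-231 and 16.2% in SKOV3. PATL1, which links deadenylation to decapping, had differences of -2.74 and -2.15. Its control arrays lay between 10.39 and 10.74 in MDA-MB-231 and at 9.98 and 10.11 in SKOV3, and all its miR-365a-3p arrays lay between 7.74 and 8.13. DCP2, the decapping enzyme, had differences of -1.38 and -0.99, and EDC4, a scaffold of decapping, had differences of -1.04 and -1.28. LSM1, a subunit of the ring that binds shortened tails, rose by 0.98 and 0.87. In SKOV3 single control arrays decided some of these calls. Without control replicate 1, EDC4 had an adjusted p of 0.0542 in limma and DCP2 of 0.065, EDC4 had 0.0683 when SKOV3 was fitted alone, and without control replicate 2, DCP2 had 0.0679 and LSM1 had 0.106.

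Of 11 genes for nuclear processing and export, 3 fell and 2 rose in MDA-MB-231, and 2 fell and 1 rose in both lines. These counts are near the shares among rows above the floor, of which 26.0% fell and 34.4% rose in MDA-MB-231 and 13.3% fell and 15.6% rose in both. RNASEN, the array's name for DROSHA, had differences of -0.63 in MDA-MB-231 and -0.38 in SKOV3 (limma adjusted p = 0.000839 and 0.0292), so this partner of DGCR8 fell in both lines. In SKOV3 the call was lost without control replicate 2 (adjusted p = 0.275) and without miR-365a-3p replicate 1 (0.0585), 2 (0.0573) or 3 (0.0669). KHSRP, an RNA-binding protein that aids processing of some precursors, had differences of -1.15 and -0.74, and its call in SKOV3 was lost when each line was fitted alone (adjusted p = 0.0523), as was that of RNASEN (0.0506). SFRS3, a splicing factor that assists recognition of primary transcripts, rose by 0.81 and 0.65.

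Of 10 partners of Dicer and loading factors, 3 fell and 2 rose in MDA-MB-231, 2 fell and 3 rose in SKOV3, and 2 fell and 2 rose in both, where 26.0% and 34.4% of rows above the floor fell and rose in MDA-MB-231 and 16.2% and 18.6% in SKOV3. ADAR, which edits double-stranded RNA, had differences of -1.70 and -1.51. PTGES3, the p23 co-chaperone of HSP90, had differences of -1.49 and -1.16, and its call in SKOV3 was lost without control replicate 1 (adjusted p = 0.0585). TARBP2, the RNA-binding partner of Dicer, went the other way from DICER1 and rose by 0.64 in MDA-MB-231 and by 0.51 in SKOV3 (limma adjusted p = 0.00116 and 0.012). TSNAX, a subunit of the C3PO nuclease, rose by 0.71 and 0.51. In SKOV3 these rises were not called on the deposited values, where TARBP2 had a difference of 0.24 (limma adjusted p = 0.123) and TSNAX of 0.24 (limma adjusted p = 0.386). They were not called either without control replicate 1 (TARBP2 0.0751, TSNAX 0.151) or control replicate 2 (TARBP2 0.1, TSNAX 0.155), and TSNAX not without miR-365a-3p replicate 1 (0.0547) or 3 (0.0629). TSNAX also missed the threshold in MDA-MB-231 on the deposited values (limma adjusted p = 0.0597).

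Of 14 other partners of Argonaute, 2 fell and 2 rose in MDA-MB-231 and 1 fell in SKOV3, with none called in both. Among rows above the floor, 26.0% fell and 34.4% rose in MDA-MB-231, 16.2% fell in SKOV3 and 13.3% fell in both. Of 8 genes for turnover and tailing of microRNAs, 1 fell in both lines, the uridylyl transferase ZCCHC11 (now TUT4), with differences of -0.50 and -0.56. The 4 genes of the PIWI clade, germline relatives of Argonaute, were called in neither line and lay at the floor. Altogether, 37 of the 76 further genes were called in neither line, as were EIF2C3, EIF2C4 and TNRC6C among the 10 members. Of all 31325 rows 22170 were called in neither line, and of the 11482 rows above the floor 3879.

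**Figure D3:**
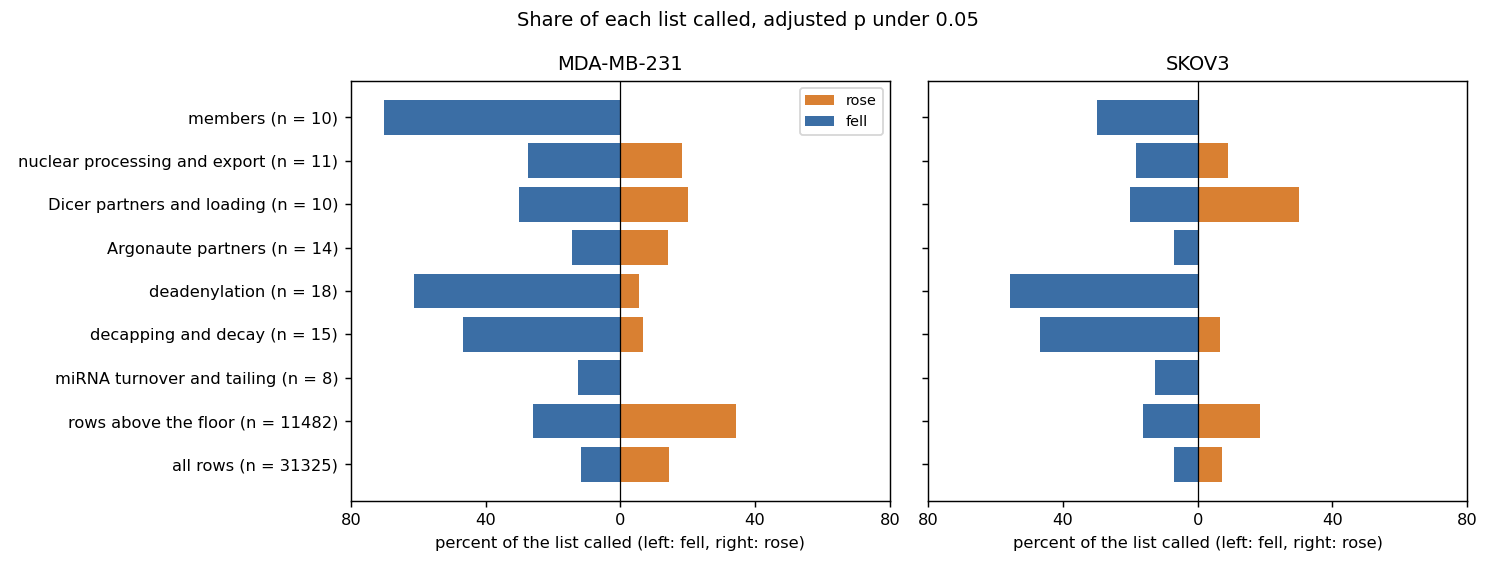
Share of each list that was called (x axis, percent of the list), with genes that fell to the left of 0 and genes that rose to the right, for MDA-MB-231 (left panel) and SKOV3 (right panel). The last 2 bars are rows above the floor and all rows. In MDA-MB-231 the members fell in 7 of 10 cases and none rose, and deadenylation genes fell in 11 of 18 cases.

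**Figure D4:**
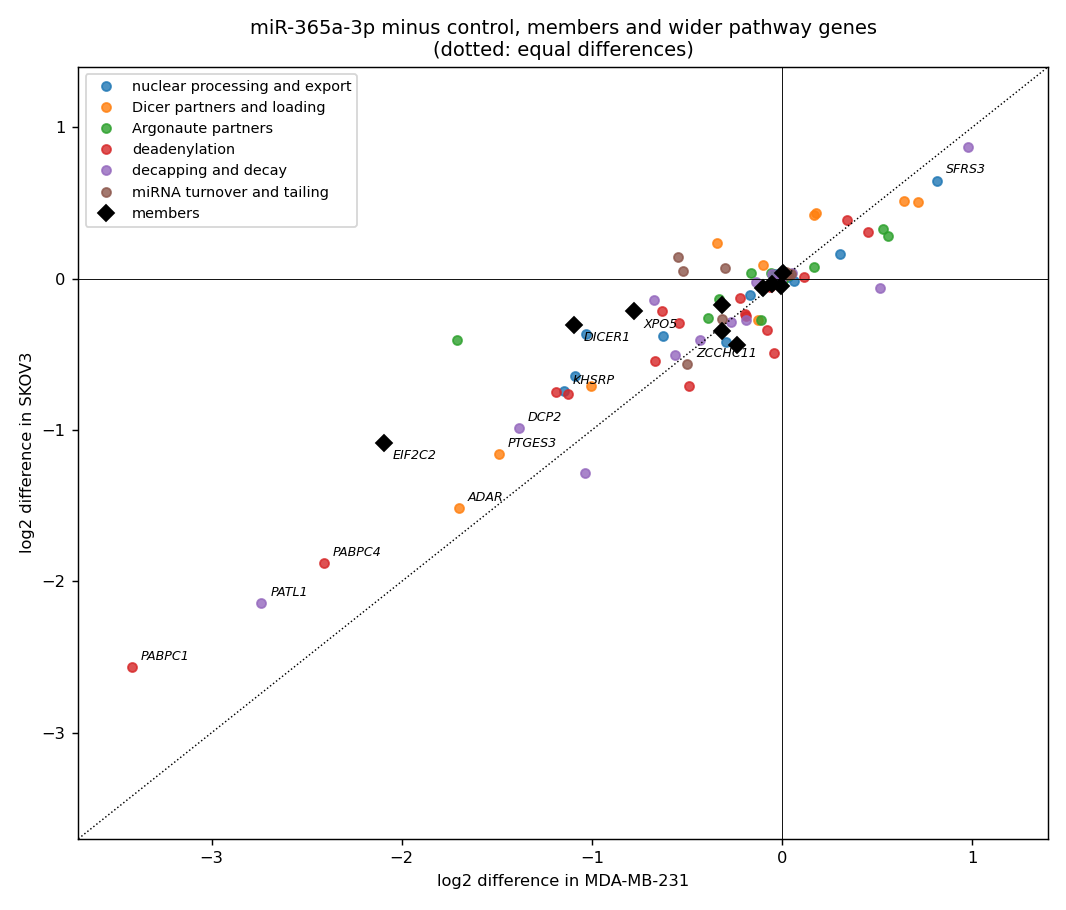
Difference between miR-365a-3p and control (log2) in MDA-MB-231 (x axis) and SKOV3 (y axis) for the members (black diamonds) and the further pathway genes (circles, coloured by role), without the PIWI clade. The dotted line marks equal differences. PABPC1 at -3.42 and -2.57 and PATL1 at -2.74 and -2.15 lie farthest to the lower left, and EIF2C2 at -2.10 and -1.09 is the member nearest to them.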

How the data were processed

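Total RNA of 11 samples was hybridized as biotin-labelled cRNA to Illumina HumanHT-12 v4 BeadChips. Quantile normalization was done by the authors in lumi (version not given in the sources used here), who deposited log2 values, 1 per gene symbol and array. The transformation, any background correction and the rule that combined probes are not given in the sources used here. The columns did not share a distribution, so they were quantile normalized again with limma 3.58.1 in R 4.3.3, and 4 group means were fitted to all 31325 rows with lmFit and eBayes, threshold 0.05 after Benjamini-Hochberg adjustment. The fit was tested on simulated data. Members and lists were chosen with earlier results of these data known. Named genes are the members, HDAC4, at most 2 further genes per role (the largest mean difference among those called in both lines with 1 sign and no overlap), and the 2 rows most like each member called in both lines. EDC4, CNOT1, CNOT6, CNOT10, LSM1, RNASEN, TARBP2 and TSNAX were named after their values were seen. The comparison of the miR-365a-3p groups was added then too. These rules do not cover CCND1, BCL2, NKX2-1, MIR365-1, MIR365-2, DDX6 and the markers of the lines, which are named as well. TOB2 is named because its response was called as different between the lines. Alternatives were the deposited values, median centring, cyclic loess, each line alone, a replicate block, an intensity trend, rows above the median, array weights, an adjusted p under 0.01 and each array left out. A restriction of the background to rows with long proteins was not run. Figures were drawn with matplotlib 3.10.9.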

Additional observations from a re-analysis of the deposited data

Results flagged for a closer look

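DICER1 and TOB2 stood out because the response to miR-365a-3p differed between the cell lines in the limma test of the difference itself. For DICER1 the difference, SKOV3 minus MDA-MB-231 cells, was 0.785 (adjusted p = 0.0179), with log2 differences of -0.31 and -1.09, and the call was lost without SKOV3 control replicate 1 (adjusted p = 0.106) or 2 (0.0624). With miR-365a-3p DICER1 lay at the floor in both lines, 0.04 above it in SKOV3 cells and 0.05 in MDA-MB-231 cells, and its control levels lay 0.35 and 1.14 above it, so the difference of the responses nearly equals that of the control levels. For TOB2, a protein that recruits deadenylases, it was -0.257 (adjusted p = 0.0439), with -0.34 in SKOV3 cells and -0.08 in MDA-MB-231 cells. TOB2 was 1 of the 76 further pathway genes called in this comparison, and no other was. Its call was lost in 10 of the 11 fits that left out an array, with adjusted p-values from 0.0517 to 0.201, and with median centring (0.059) or cyclic loess (0.0723). The outlier test needs groups of 4 or more arrays and was not applied.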

How the results depend on the processing

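In MDA-MB-231 cells the count of members called was 7, and 6 to 7 with 1 array left out. In SKOV3 cells it was 3, and 3 to 4 with 1 array left out, but 8 on the deposited values, 7 with each array centred on its median and 6 with array weights. The 3 members of the reported count stayed called in these. For the difference between lines the count was 1, and it was 2 on the deposited values, with median centring, an intensity trend, rows above the median or array weights, 3 with cyclic loess, 0 at an adjusted p under 0.01, and 0 to 2 with 1 array left out (0 without SKOV3 control replicate 1 or 2). For the control groups it was 3, and 6 on the deposited values, 5 with median centring, cyclic loess or array weights, and 3 to 4 with 1 array left out. The further pathway genes numbered 35 in MDA-MB-231 cells (29 to 38 with 1 array left out) and 28 in SKOV3 cells (17 to 30, with 18 without SKOV3 control replicate 1 and 17 without replicate 2). EIF2C3 in SKOV3 cells turned from 0.04 to -0.093 on the deposited values, and the cause was not tested. Of the members' single values with 1 array left out, 431 kept their side of the threshold, 5 lost a call and 4 gained one. Under the other alternatives 293 kept it, 8 lost a call, 30 gained one and 1 turned its sign with a call. Of those of the further genes named in the text, 402 kept their side, 25 lost a call and 2 gained one with 1 array left out, and 322, 25 and 3 did so under the other alternatives, with no call of the other sign. Single values that turned their sign without a call were counted as kept.

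With a replicate block, 5 members were called in MDA-MB-231 cells, 0 for the difference between lines and 1 between the control groups, and the calls of TNRC6A (adjusted p = 0.0789) and DGCR8 (0.0641) in MDA-MB-231 cells were lost. Same-numbered arrays of the 2 treatments had correlations of -0.13, 0.04 and 0.20 in MDA-MB-231 cells and 0.04 and -0.07 in SKOV3 cells over 11482 rows. These values show no clear pairing by number, but so few pairs cannot exclude it. The number of arrays and the floor limit the precision, most of all for EIF2C3, EIF2C4, TNRC6A and TNRC6C, and no detection values were used here.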
